A study of Mus musculus with 43 samples.

Results

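The LGI gene family (Lgi1, Lgi2, Lgi3 and Lgi4) and the genes of its ADAM receptors (Adam11, Adam22 and Adam23) were followed across genotype, sex and stage in GFP-labelled mouse neurons of cortical layers 2 and 3 (L2/3). These are 7 of the 56980 genes in the table. The set was chosen by the measured counts of Lgi1, which were lower in Cux1 knockout (KO) than in wild-type (WT) libraries at embryonic day 19 (E19), and its other genes were taken by name as the relatives and receptors of Lgi1. Values of that comparison are therefore a description with no test. The study labelled the progenitors of L2/3 neurons by in utero electroporation at E15.5, sorted GFP-positive cells from the somatosensory cortex and sequenced their RNA in bulk. It asked which genes depend on the homeobox factors Cux1 and Cux2 and how the sexes differ. The 43 libraries fell into 13 groups. At E19 there were 4 female and 4 male libraries each of WT, Cux1 KO and Cux2 KO. On postnatal day 4 (P4) WT and Cux2 KO had 3 libraries of each sex, and Cux1 KO had 2 male libraries. P7 was represented by WT alone, with 2 female and 3 male libraries.

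All animals were of the C57BL/6JRccHsd strain by their labels. WT and Cux2 KO cells received the GFP plasmid only. Cux2 KO animals carried the germline Cux2-/- genotype at both stages. Cux1 KO meant different alleles at the stages. At E19 these were germline Cux1 ΔC/ΔC animals with the GFP plasmid, a genotype that dies around birth. At P4 they were Cux1 f/Δ23 animals in which a CRE plasmid was electroporated with a GFP plasmid. Only targeted cells thus lost the second copy of the exon (Cux1 Δ23/Δ23) within heterozygous tissue. By the study's methods CRE went with pCALNL-GFP, whereas the GFP plasmid used alone was pCAG-GFP, so the GFP plasmids differed. Nothing in the labels ties each library to its own animal, so p-values measure the spread between these libraries, which may in part be technical. E19 was sequenced in one round and P4 and P7 in another.

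LGI proteins are secreted, LGI1 by neurons and LGI4 by glia, and carry leucine-rich and EPTP repeats, through which they bind ADAM11, ADAM22 and ADAM23, membrane proteins of the ADAM family that lack protease activity. LGI1 bound to ADAM22 and ADAM23 bridges the synapse, where ADAM22 anchors to PSD-95 and so to AMPA receptors, and at the axon the same proteins associate with Kv1 potassium channels. Loss of LGI1 causes epilepsy in mice and in people.

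In GRCm39, the build of the counts, Lgi1 (ENSMUSG00000067242) lies at chr19:38252960-38300662 on the plus strand, Lgi2 (ENSMUSG00000039252) at chr5:52690631-52723804 on the minus strand, Lgi3 (ENSMUSG00000033595) at chr14:70767988-70780355 on the plus strand and Lgi4 (ENSMUSG00000036560) at chr7:30758749-30770360 on the plus strand. Adam11 (ENSMUSG00000020926) lies at chr11:102652229-102671088 and Adam23 (ENSMUSG00000025964) at chr1:63484875-63635436, both on the plus strand, and Adam22 (ENSMUSG00000040537) at chr5:8122352-8418263 on the minus strand. Lgi2 and Adam22 share chromosome 5 with the mutated loci, Lgi2 at 83.7 Mb from Cux1 and 69.4 Mb from Cux2, and Adam22 at 128 Mb and 114 Mb. Whether the counting used strand is not given in the sources used here, and without strand, reads in exons that overlap a gene on the other strand cannot be told apart. Such overlap covers 6137 of 19733 exonic bases of Adam22 (with Sri), 2764 of 6017 of Lgi4 (with Fxyd3), 1157 of 14217 of Lgi1 (with Gm42723) and 229 of 5705 of Adam11 (with Gm74472).

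The 250 bases before the annotated gene start are shown for Lgi1, the gene that chose the set, and for Lgi3 and Adam11, the members whose level differed between E19 and P4 in WT. They were read from the GRCm39 genome. The motif CCAAT, known from binding studies of Cux proteins, was searched on both strands, as was the motif ATCAAT, together with its relative ATCGAT. Matches stand in capitals. No motif contains another, but the first and the second share their ending, so that matches could overlap, which none did here. The Lgi1 window is chr19:38252710-38252959, the Lgi3 window chr14:70767738-70767987 and the Adam11 window chr11:102651979-102652228, all on the plus strand.
Lgi1: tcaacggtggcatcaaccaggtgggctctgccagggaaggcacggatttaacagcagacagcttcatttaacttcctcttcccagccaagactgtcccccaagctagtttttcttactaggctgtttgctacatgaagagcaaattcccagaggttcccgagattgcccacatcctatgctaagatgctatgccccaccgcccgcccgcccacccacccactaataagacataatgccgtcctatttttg
Lgi3: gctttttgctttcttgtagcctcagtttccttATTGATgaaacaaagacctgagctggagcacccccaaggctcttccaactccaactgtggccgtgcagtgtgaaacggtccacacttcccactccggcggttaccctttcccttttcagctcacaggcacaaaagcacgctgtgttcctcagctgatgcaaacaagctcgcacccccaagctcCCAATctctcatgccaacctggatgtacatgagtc
Adam11: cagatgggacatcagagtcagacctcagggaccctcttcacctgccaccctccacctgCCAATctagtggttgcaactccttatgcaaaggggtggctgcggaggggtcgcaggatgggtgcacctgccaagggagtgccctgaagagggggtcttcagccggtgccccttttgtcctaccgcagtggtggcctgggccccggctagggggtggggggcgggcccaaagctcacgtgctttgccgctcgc
The Lgi1 window held none of the motifs. The Lgi3 window held CCAAT, starting 35 bases before the gene start, and ATCAAT on the minus strand, starting at 218 bases. The Adam11 window held CCAAT at 192 bases. The windows of the other 4 members held none. Of 21631 windows of the same length before annotated genes, the share with CCAAT was 36.1%, the share with ATCAAT was 6.88% and the share with ATCGAT was 0.791%. A match describes the letters only, and its absence says nothing of binding.

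E19 libraries held 13321095 to 20715732 counts, P4 libraries 19499125 to 60559585 and P7 libraries 15312029 to 27633827. Lgi1 rested on 20 to 101 counts per E19 library. Here a level is a count scaled by library size with the trimmed mean of M-values (TMM) and given in CPM. The counts of Cux1 and Cux2 cover whole genes and do not isolate the deleted parts: Cux1 was at 312 ± 26.9 CPM in Cux1 KO against 423 ± 65.7 CPM in WT E19 females and at 350 ± 31.7 against 401 ± 77.1 CPM in males (SD, n = 4), and Cux2 in Cux2 KO and WT had means of 349 ± 56.2 and 457 ± 63 CPM in females and 352 ± 62.5 and 412 ± 77.6 CPM in males. At P4 the targeted genes were not lower in their KO: Cux1 had means of 126 CPM in Cux1 KO (n = 2) and 115 ± 36.8 CPM in WT males (n = 3), and Cux2 of 37.9 ± 11.6 and 33.2 ± 4.57 CPM in Cux2 KO and WT females and of 44.1 ± 14.2 and 36.5 ± 8.59 CPM in males (n = 3). The labels call the cells excitatory neurons, and the summed markers of these were high at E19 and low later. The summed level of 6 excitatory neuron markers had a median of 1800 CPM at E19 (range 1169 to 2200), 109 CPM at P4 (52.2 to 536) and 38.9 CPM at P7 (15.7 to 97.0), and Slc17a7, their vesicular glutamate transporter, was at 0 in 5 of 14 P4 and 1 of 5 P7 libraries. The summed level of the 8 markers of astrocytes and radial glia had medians of 1910 CPM (E19), 5124 CPM (P4) and 8599 CPM (P7). The 9 of the oligodendrocyte lineage summed to 394 to 964 CPM, then 632 to 3178 CPM, then 3311 to 5099 CPM. Within these lists, single genes went against their sum from E19 to P4. Nrgn, of the excitatory list, rose from a mean of 11.3 CPM at E19 to 45.5 CPM at P4 and stood at 29.6 CPM at P7. Fabp7 fell from a mean of 580 CPM at E19 to 27.9 CPM at P4 and stood at 58.8 CPM at P7. Mog fell from 8.42 to 2.47 CPM and stood at 15.5 CPM at P7. In bulk RNA, fewer cells of a type and less RNA per cell cannot be told apart, and this holds for every level below.

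**Figure D1:**
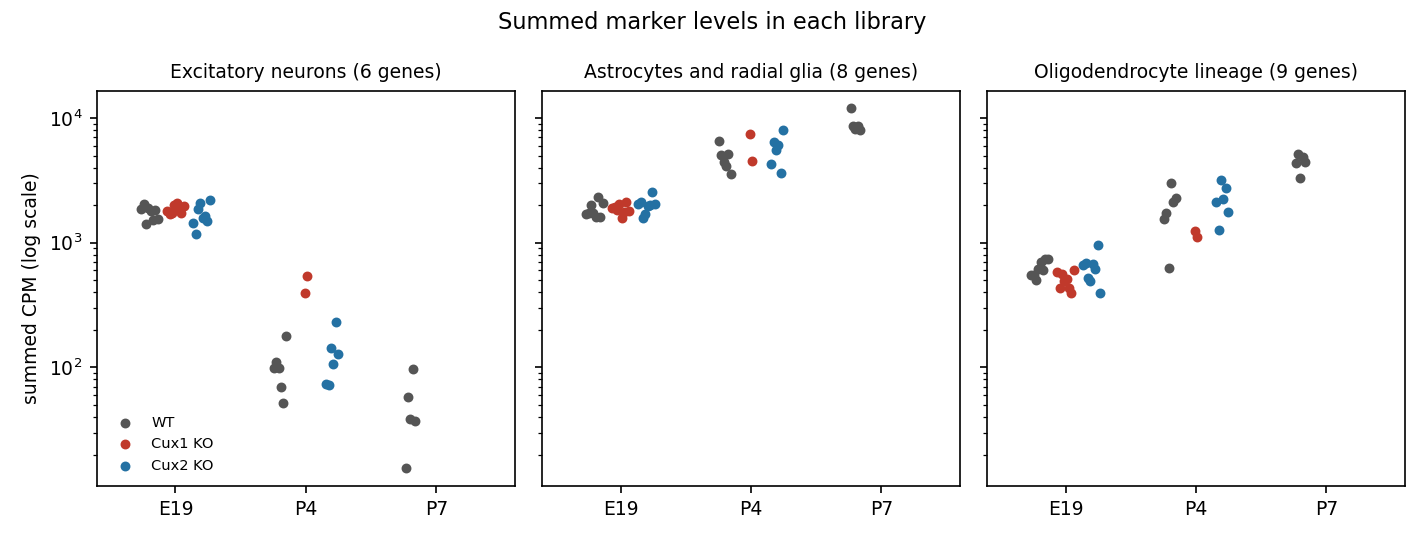
Summed CPM (log axis) of excitatory neuron, astrocyte and radial glia, and oligodendrocyte lineage markers, with 1 point per library, by stage and genotype. The excitatory sum has a median of 1800 CPM at E19 and of 38.9 CPM at P7, and the glial sums are higher at the later stages. In the excitatory sum the Cux1 KO libraries of P4 stand at 394 and 536 CPM, above WT.

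Lgi1, the founding ligand of the family, was lower in Cux1 KO than in WT L2/3 neurons at E19, the pattern that chose these genes. In females it was at 2.03, 3.24, 3.66 and 1.36 CPM in Cux1 KO and at 3.84, 5.02, 5.60 and 4.82 CPM in WT. Every KO library was below every WT library, by a narrow margin at 3.66 against 3.84 CPM. In males it was at 1.65, 1.23, 1.86 and 1.45 CPM in Cux1 KO and at 3.96, 4.55, 4.10 and 5.72 CPM in WT, again with no overlap and with a wide gap. The log2 fold change (log2FC) was -0.89 ± 0.31 (SE) in females and -1.59 ± 0.26 in males. Set beside each other, the male KO libraries (1.55 ± 0.272 CPM, SD, n = 4) spread less than the female ones (2.57 ± 1.06 CPM).

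With any 1 library left out, the log2FC ran from -1.71 to -1.47 in males and from -1.11 to -0.68 in females. As these values chose the set, the ranges describe the libraries and do not test the difference. Whether the sexes differ in the log2FC was not tested.

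**Figure D2:**
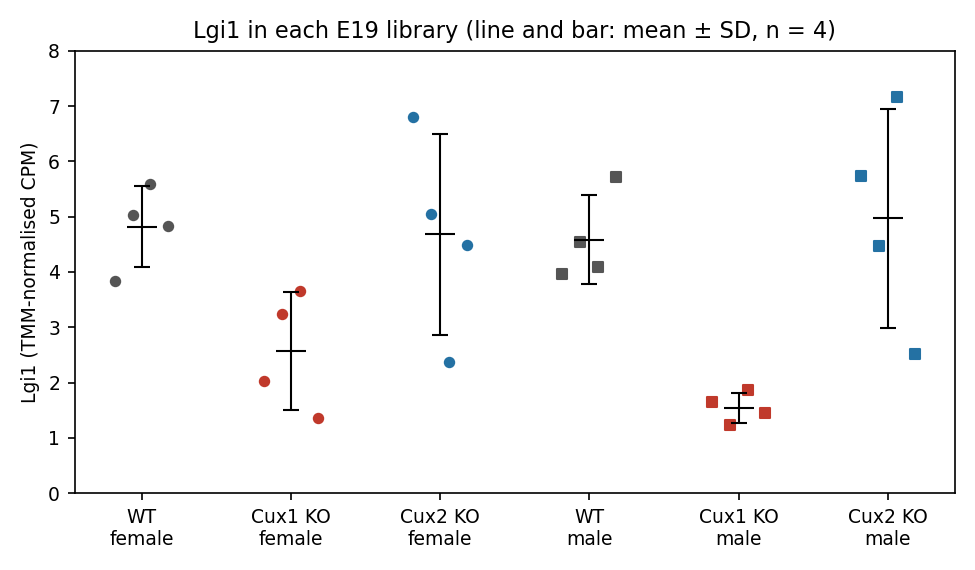
Lgi1 level (TMM-normalised CPM) in each E19 library by genotype and sex, with 1 point per library and the mean ± SD of 4. Cux1 KO libraries lie at 1.36 to 3.66 CPM in females and 1.23 to 1.86 CPM in males, below all WT libraries of the same sex, while Cux2 KO libraries span 2.38 to 7.17 CPM around WT.

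The other members overlapped between Cux1 KO and WT in both sexes. Over all genes in the fit, 3.35% had no overlap in females and 6.43% in males. Lgi2, a related ligand, was at 1.96, 1.62, 4.90 and 1.61 CPM in female Cux1 KO and at 3.24, 4.57, 3.50 and 4.14 CPM in female WT (log2FC -0.60 ± 0.35), with KO replicate 3 above all WT libraries and the rest below them. Adam23, a receptor on the presynaptic side, was at 32.9, 33.2, 31.8 and 24.3 CPM in male Cux1 KO and at 27.8, 22.6, 21.1 and 16.0 CPM in male WT (log2FC 0.45 ± 0.17), with 1 KO library inside the WT range. Adam22, the receptor that anchors to PSD-95, had means of 71.1 ± 9.15 CPM in female and 78.3 ± 14.2 CPM in male Cux1 KO, near the 78.1 ± 11.9 and 76.2 ± 12.3 CPM of WT. Adam11 had means of 51.5 ± 14.9 CPM in female Cux1 KO against 61.2 ± 23.9 CPM in WT, and of 63.2 ± 16.2 against 47.5 ± 16.0 CPM in males. Lgi3, a brain ligand of the same receptors, was low everywhere at E19, at 0.368 to 1.61 CPM in the 8 Cux1 KO and 0.233 to 3.83 CPM in the 8 WT libraries. Lgi4, the ligand secreted by Schwann cells, did not exceed 11 counts in any of these 16 libraries and did not pass the filter on low counts.

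Some marker sums of other cells differed between the same libraries. The 4 intermediate progenitor markers summed to 589 to 667 CPM in female Cux1 KO and 384 to 504 CPM in female WT, without overlap, and to 408 to 608 against 347 to 525 CPM in males. In males the 9 oligodendrocyte lineage markers summed to 394 to 607 CPM in Cux1 KO and 601 to 743 CPM in WT, and the 7 microglial markers to 30.1 to 44.0 against 50.3 to 65.8 CPM. The 8 astrocyte and radial glia markers overlapped, at 1823 to 2054 against 1705 to 2021 CPM in females and 1563 to 2134 against 1602 to 2334 CPM in males. The part of these cells in the Lgi1 level was not tested.

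In Cux2 KO, Lgi1 was near its WT level at E19. It was at 6.80, 5.05, 2.38 and 4.48 CPM in Cux2 KO females and at 5.74, 4.46, 7.17 and 2.51 CPM in males, against the WT libraries given above, which serve both mutants. The KO libraries lay on both sides of the WT range in each sex. The log2FC was -0.04 ± 0.30 in females (edgeR adjusted p = 0.991), 0.10 ± 0.31 in males (adjusted p = 0.961) and 0.03 ± 0.22 with the sexes together (adjusted p = 0.989). Its sign changed with the library left out, over -0.27 to 0.20 for females and -0.12 to 0.32 for males.

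A gene was called at E19 where its p from the count model of edgeR, adjusted over all genes tested, was under 0.05 and its absolute log2FC over 0.5. No member was called between Cux2 KO and WT at E19 in females (0 of 6 in the fit, with 0.0287% of all genes called) or in males (0 of 6, with 0.121%) by edgeR, and none by DESeq2, another count model. At an unadjusted p under 0.05 there was 1 in each sex. In females this was Lgi2, at 10.2, 7.40, 4.20 and 8.01 CPM in Cux2 KO against 3.24, 4.57, 3.50 and 4.14 CPM in WT (log2FC 0.96 ± 0.28, adjusted p = 0.672). Only KO replicate 3 fell inside the WT range. In males Lgi2 was at 1.59, 7.29, 7.02 and 6.44 CPM in Cux2 KO and at 7.28, 3.77, 2.98 and 3.65 CPM in WT, with 1 library of each group far from its fellows, and with the sexes together its log2FC was 0.64 ± 0.27 (adjusted p = 0.511; 0.101% of all genes called). In males the member was Lgi3, at 4.03, 1.64, 4.61 and 2.17 CPM in Cux2 KO against 0.233, 1.26, 1.12 and 2.15 CPM in WT (log2FC 1.38 ± 0.55, adjusted p = 0.574), again with an overlap of 1 KO library. The groups overlapped for every member, whereas 3.07% of all genes in the female comparison and 4.46% in the male one had no overlap. The test of whether the Cux2 KO difference itself differed between the sexes called none of the 6 members and none of 18356 genes by edgeR, with 694 genes at an unadjusted p under 0.05 and none by DESeq2. The 3 erythroid markers summed to 53.2 to 81.3 CPM in Cux2 KO females and 30.0 to 49.0 CPM in WT females, without overlap, and all other marker sums overlapped in both sexes.

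**Figure D3:**
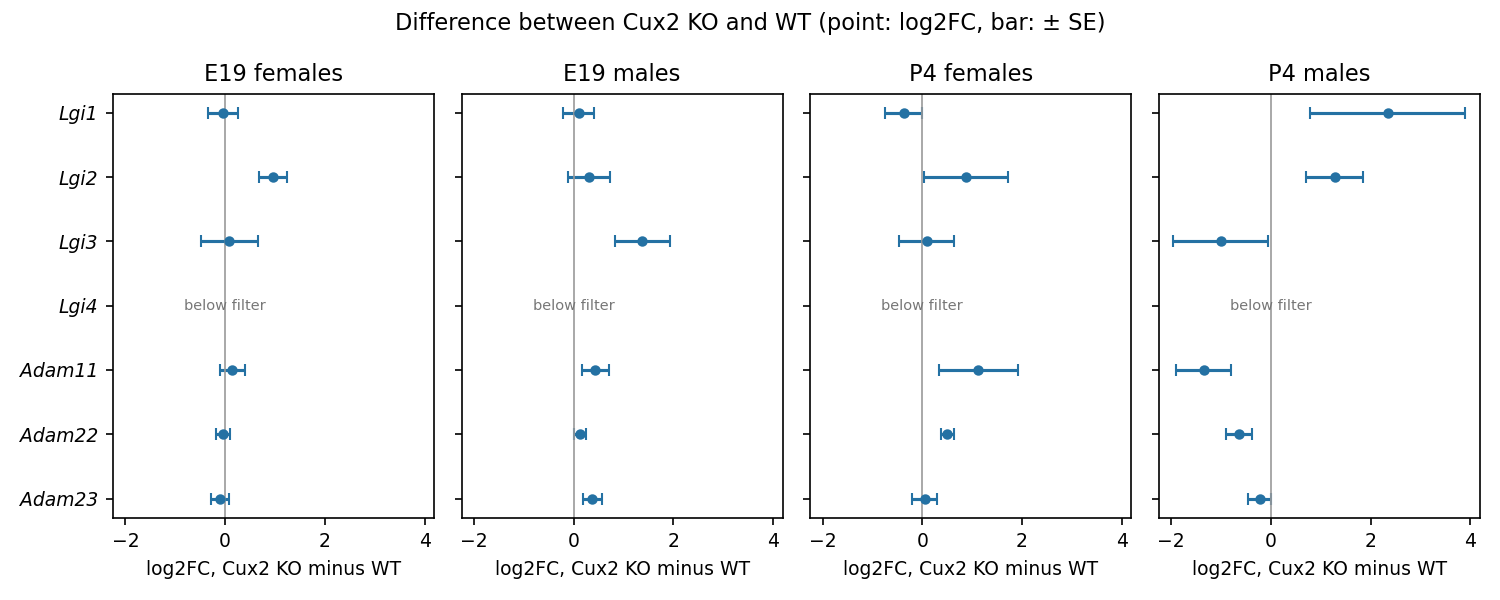
Log2FC (Cux2 KO minus WT) of each member with its SE, within each sex at E19 (n = 4 per group) and P4 (n = 3 per group). E19 receptor differences run from -0.10 to 0.43, Lgi2 in E19 females is at 0.96 and Lgi1 in P4 males at 2.34 with an SE of 1.56, and no member passed the thresholds. Lgi4 is below the filter on low counts.

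In WT, the receptors and ligands had unlike courses from E19 to P7. Adam11, a receptor known from inhibitory synapses of the cerebellum, fell from 54.3 ± 20.2 CPM (SD, n = 8) to 3.69 ± 3.36 CPM at P4 (n = 6) and 3.89 ± 1.92 CPM at P7 (n = 5). The E19 libraries had a lowest level of 27.0, a median of 54.0 and a highest of 89.5 CPM, and those of P4 had 0.348, 2.99 and 9.70 CPM, with no overlap (log2FC -4.05 ± 0.58, adjusted p = 1.8e-05). Lgi3 rose from 1.53 ± 1.14 to 16.0 ± 8.75 CPM at P4 and stood at 22.3 ± 6.10 CPM at P7. Its median was 1.41 CPM over the E19 and 15.7 CPM over the P4 libraries. Its lowest P4 library, at 3.69 CPM, was just under its highest E19 library, at 3.83 CPM, and all others were apart (log2FC 3.35 ± 0.57, adjusted p = 9.8e-05). These members were 2 of the 6 in the fit, 1 in each direction, against 46.3% of all genes called, 22.6% higher and 23.7% lower, so their share was no more than the background. Both calls also held in females alone and in males alone. The excitatory marker sum was lower and the glial sums were higher at P4 than at E19, as given above. Their part in these levels was not tested, and stage and sequencing round cannot be told apart.

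With the sexes together, Adam22 and Adam23 had similar mean levels at each stage. Adam22 was at 77.2 ± 11.3 CPM at E19, 77.5 ± 32.9 at P4 and 66.3 ± 22.0 at P7, with a log2FC of -0.00 ± 0.19 from E19 to P4 (adjusted p = 0.996). Adam23 was at 24.3 ± 6.63, 23.8 ± 3.14 and 22.8 ± 3.83 CPM (log2FC 0.02 ± 0.17, adjusted p = 0.911). The ranges of the stages overlapped for both with the sexes together. Within each sex, the Adam22 mean moved in opposite directions from E19 to P4. In females it went from 78.1 ± 11.9 to 54.5 ± 1.84 CPM, without overlap. In males it went from 76.2 ± 12.3 to 101 ± 33.3 CPM, with overlap. Lgi1 went from 4.70 ± 0.722 CPM at E19 to 3.66 ± 3.01 at P4 (log2FC -0.69 ± 0.73, adjusted p = 0.417) and 3.30 ± 0.821 at P7, and the sexes parted at P4, as described below. Lgi2 went from 4.14 ± 1.36 to 2.35 ± 1.21 CPM (log2FC -0.77 ± 0.33, adjusted p = 0.0503), at the edge of the adjusted p and short of the log2FC of 1 required at the later stages, and stood at 3.86 ± 2.78 CPM at P7. It passed both limits without WT P4 female replicate 3, at a log2FC of -1.15. Lgi4 stayed at or under 1.79 CPM in every WT library.

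From P4 to P7, within one sequencing round, no member was called by edgeR (0 of 7, with 2.29% of all genes called), and none reached an unadjusted p under 0.05. Of the members, DESeq2 without a prior called Lgi4 alone, among 1187 of 22030 genes. Lgi3 had a log2FC of 0.52 ± 0.33 (adjusted p = 0.417) and Lgi1 of 0.49 ± 1.00 (adjusted p = 0.837). The sign for Lgi1 is opposite to that of its mean levels (3.66 CPM at P4 and 3.30 CPM at P7), and in females alone its log2FC was -0.79.

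Per kilobase of exon, Adam11 led at E19 with 9.52 ± 3.54 CPM per kb, followed by Adam22 at 3.91 ± 0.571, Adam23 at 1.29 ± 0.351, Lgi2 at 0.596 ± 0.196, Lgi1 at 0.331 ± 0.0508, Lgi3 at 0.159 ± 0.119 and Lgi4 at 0.0349 ± 0.0379. All 3 receptors were thus above all 4 ligands. Between neighbours in this order the ranges were apart for Adam22 over Adam23 and for Lgi2 over Lgi1, and overlapped for the other 4 pairs, although Adam11 exceeded Adam22 within each of the 8 libraries. At P4 the order was Adam22 (3.93 ± 1.67), Lgi3 (1.67 ± 0.914), Adam23 (1.26 ± 0.166), Adam11 (0.646 ± 0.590), Lgi2 (0.338 ± 0.174), Lgi1 (0.257 ± 0.211) and Lgi4 (0.0219 ± 0.0508), with overlap between all neighbours. At P7 it was the same, and only Lgi3 (2.33 ± 0.637) over Adam23 (1.21 ± 0.203) had no overlap. With the length of the canonical transcript in place of all exons, a choice made after seeing the data, the order of the means was unchanged at E19. The ranges of Lgi2 (0.622 CPM per kb) and Lgi1 (0.604) then overlapped, with Lgi2 higher in 3 of 8 libraries. Adam11 exceeded Adam22 in 6 of 8. Ranges were apart for Adam22 over Adam23, Adam23 over Lgi2 and Lgi1 over Lgi3. Adam23 stood above Lgi3 at P4 and P7 and Lgi1 above Lgi2 at P4, each with overlapping ranges.

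The make-up of each side followed. Lgi3 gave 14.1 ± 8.87% of the summed per-length level of the 4 ligands in WT at E19, 68.8 ± 24.2% at P4 and 71.4 ± 3.59% at P7, while Lgi1 gave 30.0 ± 5.54%, 13.8 ± 12.2% and 7.95 ± 4.36%. Of the 3 receptors, Adam11 gave 63.3 ± 5.90%, 10.1 ± 8.33% and 12.5 ± 5.47% at these stages and Adam22 gave 27.8 ± 5.33%, 66.7 ± 8.47% and 62.7 ± 9.16%. These shares rest on the length of all exons and were not computed with the canonical transcript. With the latter, the E19 means were closer, at 10.6 (Adam11), 8.17 (Adam22) and 3.69 CPM per kb (Adam23), and at 0.622 for Lgi2 and 0.604 for Lgi1. At E19 the Lgi1 share of the ligands was 21.4 ± 8.08% in Cux1 KO and 21.8 ± 7.63% in Cux2 KO (n = 8 each), with ranges that overlapped WT.

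**Figure D4:**
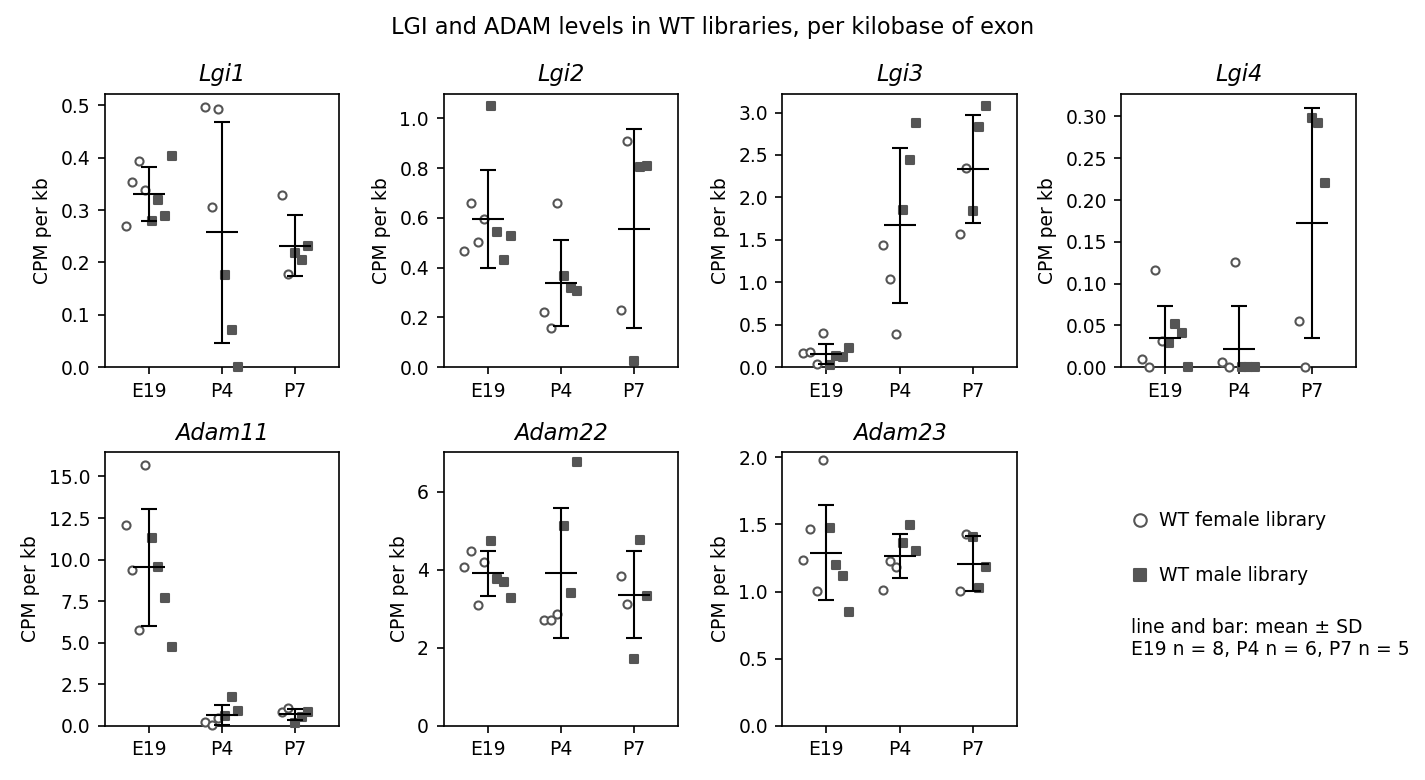
Level per kilobase of exon (CPM per kb, own axis for each gene) in WT libraries at E19, P4 and P7, with 1 point per library, open for females and filled for males, and the mean ± SD. Adam11 drops from a mean of 9.52 to 0.646 CPM per kb between E19 and P4, Lgi3 climbs from 0.159 to 1.67, and Adam22 has means of 3.91, 3.93 and 3.36.

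At P4 the libraries of WT females and WT males did not overlap for 5 of the 6 members in the fit, which held for 15.5% of all genes. None was called by edgeR (0 of 6, with 0% of 19213 genes called, and 3 members and 1398 genes at an unadjusted p under 0.05). The smallest adjusted p of edgeR over all genes was 0.0602. Xist and Y-linked genes, which the paper reports as differing between the sexes at every stage, were thus not called either. A test that misses these genes says little of the members. Lgi1 was at 7.08, 4.35 and 7.02 CPM in WT females and at 2.50, 1.01 and 0 CPM in WT males. The 0 came from the deepest library of the series, where a count of 0 allows up to 0.0438 CPM (3 counts, counting error only). Despite its depth, this library had 20844 genes with a count, the fewest outside the Cux1 KO libraries of P4. The log2FC, female minus male, was 2.40 ± 1.55 (adjusted p = 0.792), and 1.81 without that library.

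Lgi3 and the receptors had their higher values in males. Lgi3 was at 13.7, 9.92 and 3.69 CPM in WT females and at 17.8, 23.4 and 27.5 CPM in males (log2FC -1.32 ± 0.49, adjusted p = 0.675). Adam22 was at 53.4, 53.4 and 56.6 CPM in females and at 101, 67.0 and 134 CPM in males (log2FC -0.88 ± 0.25, adjusted p = 0.675). Adam11 was at 1.15, 0.348 and 2.58 against 3.40, 9.70 and 4.95 CPM (log2FC -2.15 ± 0.85, adjusted p = 0.675), with the male libraries spread over a wide range. Adam23 was at 19.1, 23.2 and 22.2 against 25.7, 28.3 and 24.6 CPM, a small gap. DESeq2 called none of the members either, and 238 genes without a prior. Marker sums of other cells also differed between these libraries without overlap. In females against males the 9 oligodendrocyte lineage markers summed to 632 to 1734 against 2112 to 3009 CPM and the 6 endothelial and mural markers to 140 to 205 against 319 to 509 CPM. The 9 interneuron markers (617 to 1179 against 369 to 564 CPM), the 4 of intermediate progenitors (451 to 555 against 243 to 384 CPM) and the 6 of deep-layer neurons (155 to 191 against 121 to 152 CPM) were higher in females. Over the 14 P4 libraries, Gadd45g and Btg2 had means of 190 and 153 CPM, and Eomes and Neurog2 of 4.75 and 5.31 CPM. At P4, here and below, the intermediate progenitor sum thus reflects Gadd45g and Btg2 more than Eomes or Neurog2. The part of these marker sums in the member levels was not tested.

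At E19 every member overlapped and none was called by edgeR or DESeq2 (0.0461% of all genes called, 2.44% without overlap, 0 members at an unadjusted p under 0.05). At P7 none was called by either tool (0.0247% called, 0 members at an unadjusted p under 0.05), and 2 of 7, Lgi4 and Adam11, had no overlap, which held for 18.5% of all genes. Lgi4 was at 0.330 and 0 CPM in P7 females, where the 0 allows up to 0.113 CPM, and at 1.79, 1.76 and 1.32 CPM in P7 males. Adam11 was at 4.82 and 5.90 CPM in P7 females and at 0.950, 3.12 and 4.66 CPM in males, so the higher sex was the reverse of that at P4 (log2FC 0.88 ± 0.67, adjusted p = 1). At P7 the astrocyte and radial glia sum was higher in females (8638 to 11916 against 7975 to 8599 CPM), and the endothelial and mural (279 to 290 against 377 to 1065 CPM) and erythroid sums (0.594 to 18.6 against 34.7 to 346 CPM) were higher in males, all without overlap, and their part was not tested.

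In Cux2 KO at P4, no member was called in females (0 of 6, with 0% of 19538 genes called and 1443 at an unadjusted p under 0.05) or in males (0 of 6, with 0% of 19720 genes and 1136 at an unadjusted p under 0.05) by edgeR, nor by DESeq2, which called 179 genes in females and 362 in males without a prior. The smallest adjusted p of edgeR over all genes was 0.213 in females and 0.132 in males. As edgeR called no gene at all here, its result says little of the members. Lgi1 was at 5.92, 3.20 and 5.02 CPM in Cux2 KO females, inside and below the WT females (log2FC -0.38 ± 0.36, adjusted p = 0.834). In males it was at 6.57, 4.90 and 6.49 CPM, above all 3 WT males (log2FC 2.34 ± 1.56, adjusted p = 0.999). Without the WT male library at 0 the log2FC was 1.75. The male KO libraries were thus at the level of the females of either genotype, and the WT males were the low group.

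For Adam22, Cux2 KO libraries were above WT in females and not in males. It was at 85.6, 75.7 and 70.3 CPM in Cux2 KO females, above all WT females (log2FC 0.50 ± 0.13, adjusted p = 0.524), and at 65.9, 71.9 and 56.4 CPM in Cux2 KO males, overlapping the lowest WT male (log2FC -0.64 ± 0.26, adjusted p = 0.863). The difference of these differences was 1.14 ± 0.30 (adjusted p = 0.629 by edgeR, and 0.0312 by DESeq2 without a prior, which called it among 284 of 22850 genes). That test by edgeR called 0 of 7 members, 3 of which had an unadjusted p under 0.05, and 0% of 21878 genes, with 1590 at an unadjusted p under 0.05. For Lgi1 the same difference was -2.73 ± 1.58 (adjusted p = 0.716). Adam11 in males was at 1.88, 3.25 and 1.98 CPM in Cux2 KO, below all WT males (log2FC -1.35 ± 0.56, adjusted p = 0.865). Groups did not overlap for 1 of 6 members in females, where 15.9% of all genes had no overlap, and for 2 of 6 in males, where 12.5% had none. With the sexes together none of 6 was called by edgeR or DESeq2, where 0.0528% of all genes were, and 0 had an unadjusted p under 0.05. In females the endothelial and mural markers summed to 410 to 496 CPM in Cux2 KO and 140 to 205 CPM in WT, and those of intermediate progenitors to 340 to 391 against 451 to 555 CPM. In males the 7 microglial markers summed to 43.6 to 102 CPM in Cux2 KO and 31.6 to 40.9 CPM in WT. These sums did not overlap, and their part in the member levels was not tested.

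The Cux1 KO males of P4 must be read library by library, because they had only 2 and these were unlike. Replicate 1 held 19499125 counts, and its 17049 genes with a count were the fewest of the series. Of 10926 genes with a mean of at least 10 CPM over the WT libraries of P4, 3.29% were at 0 in replicate 1 and 1.03% in replicate 2. The share was at most 0.0915% in WT males, which are among the libraries that chose these genes. It was at most 0.0458% in the Cux2 KO libraries of P4, which did not choose them. In replicate 1 Lgi1, Lgi3, Lgi4 and Adam11 were at 0, which allows up to 0.151 CPM, and Adam23 was at 0.553 CPM. In replicate 2 they were at 9.96, 2.18, 4.31, 7.62 and 20.7 CPM.

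Against WT males, the libraries that also serve the Cux2 KO comparison, Adam22 was at 42.1 and 26.5 CPM in Cux1 KO, below 101, 67.0 and 134 CPM (log2FC -1.57 ± 0.40, adjusted p = 0.119). Lgi3 was at 0 and 2.18 CPM, below 17.8, 23.4 and 27.5 CPM (log2FC -4.37 ± 1.81, adjusted p = 0.270). In both genes the KO libraries were below every WT library, and without KO replicate 1 the log2FC was -1.93 for Adam22 and -3.40 for Lgi3. Lgi2 was at 3.97 and 12.1 CPM, above 2.55, 2.20 and 2.12 CPM in WT. Lgi1, at 0 and 9.96 CPM, lay on both sides of the WT males (log2FC 2.08 ± 2.82, adjusted p = 0.745), with a range wider than that of any other P4 group.

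By edgeR none of the 6 members in the fit was called (0% of 19601 genes, with 4021 at an unadjusted p under 0.05, Adam22 among them). The smallest adjusted p of edgeR over all genes was 0.0764, so this test too says little of the members. DESeq2 without a prior called Lgi3 (adjusted p = 0.0229) and Adam22 (adjusted p = 0.00289) among 3242 of 21373 genes tested. With a prior it called Adam22 among 2273 of 18202 genes. The edgeR fit with all groups of P4 called Adam22 among 2597 of 23658 genes. The groups of 4 of the 6 members did not overlap, where 41.7% of all genes did not. The 6 excitatory markers summed to 394 and 536 CPM in Cux1 KO and to 52.2 to 177 CPM in WT males, and the oligodendrocyte lineage to 1107 and 1242 against 2112 to 3009 CPM. Interneuron (178 to 301 against 369 to 564 CPM), intermediate progenitor (77.2 to 124 against 243 to 384 CPM), microglial (13.5 to 14.2 against 31.6 to 40.9 CPM) and endothelial and mural sums (0.201 to 84.0 against 319 to 509 CPM) were also lower in Cux1 KO without overlap. Their part in the member levels was not tested.

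Set directly against each other, which needs no WT library, Cux2 KO males had more Adam22 than Cux1 KO males at P4 (65.9, 71.9 and 56.4 against 42.1 and 26.5 CPM) without overlap, a difference that did not pass the test (log2FC 0.91 ± 0.28, adjusted p = 0.129). None of the 7 members was called by edgeR or DESeq2, where edgeR called 2.98% of all genes (589), and 1 had an unadjusted p under 0.05. That count was 0 without any 1 of the Cux2 KO libraries, 1821 without Cux1 KO replicate 1 and 3351 without Cux1 KO replicate 2. Adam22 was the one member without overlap, against 45.7% of all genes. Without Cux1 KO replicate 2, Lgi1, Adam11 and Adam23 were called, but the Cux1 KO arm is then the 1 library with many genes at 0, and the spread comes from the Cux2 KO libraries alone.

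**Figure D5:**
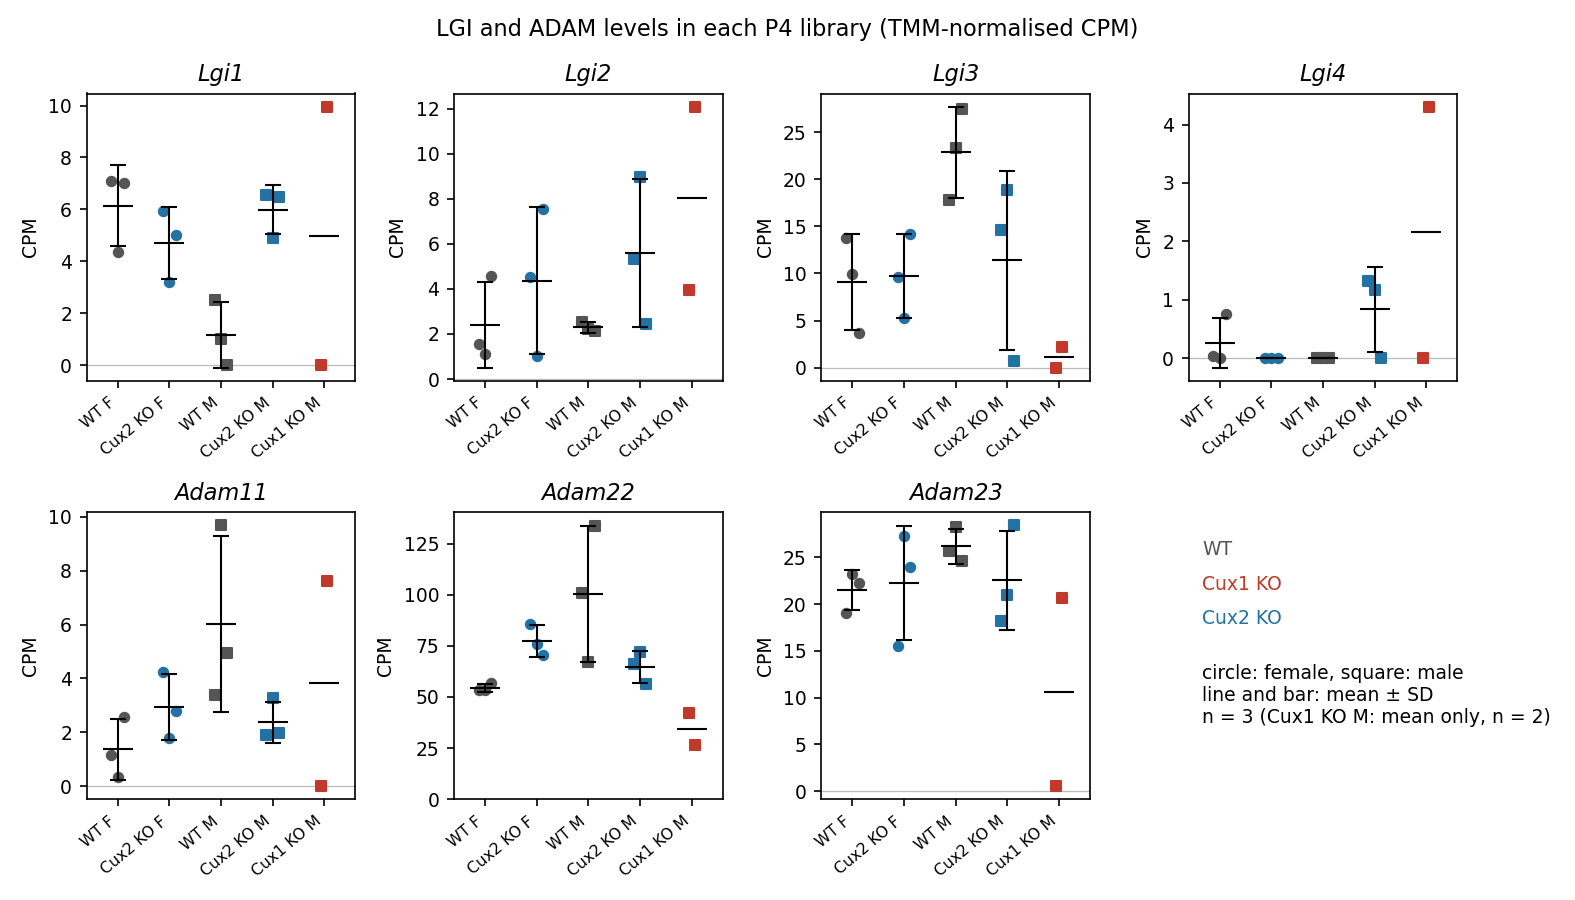
TMM-normalised CPM of each member in each P4 library by genotype and sex (circles female, squares male), with the mean ± SD of 3 and the mean alone for the 2 Cux1 KO libraries. Lgi1 is at 0 to 2.50 CPM in WT males and 4.90 to 6.57 CPM in Cux2 KO males, Adam22 is lowest in Cux1 KO, and 1 Cux1 KO library is at 0 for 4 members.

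Genes that work with the LGI and ADAM proteins were counted from 5 lists. Cux1 KO against WT at E19 left aside, none of their genes was called by edgeR in any comparison of genotype or sex, nor from P4 to P7. In these comparisons 1 to 10 of the 37 to 39 in the fit had an unadjusted p under 0.05, where 3.67% to 24.9% of all genes did. The 10, of 38, were in Cux2 KO against Cux1 KO males, where 24.9% of all genes did, and in WT females against males at P4 there were 8 of 38, where 7.28% did. DESeq2 was not counted over these lists. Between WT E19 and P4, of 13 AMPA receptor and scaffold genes in the fit, 7 were called lower and 0 higher. Of all genes, 46.3% were called, 23.7% lower and 22.6% higher. At an unadjusted p under 0.05 by edgeR, 8 of the 13 were lower and 3 higher. Their median log2FC was -1.41, against 0.03 over all genes. The 7 called were the receptor subunits Gria1 and Gria2, the auxiliary subunit Cacng2 and the membrane scaffolds Dlg1, Dlg2, Dlg3 and Dlg4, the last of which encodes PSD-95. The largest falls were those of Dlg3, from 94.8 ± 12.9 to 2.01 ± 1.53 CPM (log2FC -5.51, adjusted p = 1.42e-07), and Dlg2, from 92.4 ± 21.2 to 9.24 ± 7.98 CPM (log2FC -3.40, adjusted p = 2.66e-06).

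Of 10 Kv1 channel and axonal genes, 3 fell and 1 rose (median log2FC 0.15). These 4 of 10, like the 4 of 7 and 4 of 8 of the next lists, were near the 46.3% of all genes called. Cntn2, an axonal adhesion protein, fell from 1203 ± 232 to 6.73 ± 5.50 CPM (log2FC -7.57), the channel beta subunits Kcnab2 and Kcnab3 fell by 3.11 and 1.26 on the log2 scale, and the channel gene Kcna3 rose by 1.39. Of 7 other ADAM genes in the fit, which keep protease activity, Adam8, Adam15 and Adam19 fell (log2FC -3.88, -1.27 and -2.46) and Adam12 rose (1.02). Of 8 further partners, the Nogo receptor Rtn4r (-4.69) and the 14-3-3 gene Ywhag (-2.73) fell, and the 14-3-3 gene Ywhah (1.04) and Zdhhc2 (2.54), a palmitoyltransferase of PSD-95, rose. The EPTP repeat gene in the fit did not pass. The differences in neuronal and glial marker sums given above lie between the same libraries, and their part here was not tested.

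Across the 24 E19 libraries, the genes whose log2 CPM was most like that of Lgi1 were Ctsh (Pearson r = 0.79), a lysosomal protease, Prokr2 (0.77), a receptor of prokineticins, Pla2g7 (0.76), a secreted phospholipase, Metrn (0.75), a secreted factor, and Plekhb1 (0.74), out of 16304 genes. Among the members Lgi2 had r = 0.42 and Lgi3 0.40, whereas Adam22 had 0.07, Adam11 -0.23 and Adam23 -0.36. Within the set, Adam11 and Adam23 were most alike (r = 0.64). Across the 13 group means the closest of 16991 genes were Kcnab1 (0.91), a Kv1 beta subunit that is also on the Kv1 list, 9030407P20Rik (0.89), Mblac1 (0.88), Fgl2 (0.88) and Togaram2 (0.87). These are descriptions over points that share groups, sequencing round and depth, and Lgi1 had few counts, so its own counting error enters each r.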

How the data were processed

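Bulk RNA-seq of 43 libraries was analysed from the gene counts the authors deposited, 1 table of whole-number counts for 56980 genes. Per the study's methods, 60-nucleotide single-end reads from a low-input kit were aligned with HISAT2 to GRCm39, over-duplicated reads were removed and genes were counted with featureCounts. Removing duplicates can lower the counts of high genes, and whether strand was kept and counted is not given in the sources used here. No other column was used.

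Groups came from the sample labels. Each pair of groups was compared with the quasi-likelihood test of edgeR 4.0.16 (R 4.3.3) on the counts, with TMM scaling, filterByExpr and Benjamini-Hochberg adjustment over all genes tested. The call took the study's limits, an adjusted p under 0.05 with an absolute log2FC over 0.5 at E19 and over 1 at P4 and P7, and for the difference between sexes the adjusted p alone. Stage fits had sex as a covariate. Levels are CPM with TMM over all 43 libraries, and per-length levels divide by all exons of GENCODE M39. DESeq2 1.42.0 with and without a prior, its size factors, no filter, 1 fit per stage, a replicate block, each sex alone (stages) and each library left out were alternatives.

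The members and lists were chosen with earlier results of these data known. Named were the 7 members, Cux1 and Cux2, the genes of the partner lists that passed (where over 4 of a list passed, the values of the 2 of largest change in each direction) and the 5 genes most like Lgi1 in each of 2 sets. Replicate numbers were checked for pairing in 11 comparisons: the mean correlation of same-numbered deviations ran from -0.0814 to 0.233. In none of the 8 comparisons with 3 or more pairs were all over 0.1, so the numbers were not taken to pair the libraries. Of the 3 with 2 pairs, both pairs were over 0.1 in WT females against males at P7 (0.194 and 0.273).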

Additional observations from a re-analysis of the deposited data

Results flagged for a closer look

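In 5 of 42 combinations of a member and a group of 4 E19 libraries, 1 library lay far from the other 3, where chance gives about 1 in 20. Lgi2 was at 4.90 CPM in Cux1 KO female replicate 3 and at 1.59 CPM in Cux2 KO male replicate 1. Lgi4 was at 0.623 CPM in Cux1 KO female replicate 2 and at 1.71 CPM in Cux2 KO female replicate 2. Adam23 was at 24.3 CPM in Cux1 KO male replicate 4.

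Adam11 went opposite ways between the WT sexes at P4 and P7, with every female below every male at P4 (log2FC -2.15) and every female above every male at P7 (0.88). The difference between the stages was not tested.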

How the results depend on the processing

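The depth limits Lgi1, Lgi3 at E19 and Lgi4 most. Cux1 KO against WT at E19 chose the set, so its calls are not reported here. In Cux1 KO against WT at P4 the 0 members became 2 by DESeq2 without a prior (Lgi3 and Adam22), 1 with a prior and 1 with all groups in one fit (both Adam22), and 0 to 2 over the fits without a library, the highest without Cux1 KO replicate 2 (Lgi3 and Adam23), which leaves 1 KO library assumed to vary like the WT. Without it Lgi1 there had a log2FC of -8.76, the fits without each library ran from -8.76 to 3.28, and the replicate block gave -1.51. In Cux2 KO against Cux1 KO the fits without a library called 0 to 3. DESeq2 without a prior called 1 member from P4 to P7 (Lgi4) and 1 in the Cux2 KO by sex test at P4 (Adam22). All other counts of members were unchanged or within 1.5 times, and Lgi3 and Adam11 were called from E19 to P4 in every fit.

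Signs near 0 turned. For WT P4 against E19, Adam23 was at -0.0087 and -0.0092 by DESeq2 without and with a prior, -0.013 with its size factors, -0.28 in females alone and -0.073 to 0.13 without a library; Adam22 was at 0.049 without the filter, 0.44 in males alone and -0.18 to 0.062 without a library; and Lgi1 was at 0.38 in females alone. For P7 against P4, Lgi1 was at -0.017 with a prior and -0.79 in females alone. For Lgi1 in Cux2 KO at E19 it was -0.027 with the replicate block over both sexes, and without a library -0.077 to 0.15 over both, -0.27 to 0.20 in females and -0.12 to 0.32 in males. Of 106 member differences in a fit, 39 changed sign somewhere, 0 of them called. The cause was not tested.

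The order per length held in 1 of 3 stages with the canonical transcript. Of the 5 genes most like Lgi1, Spearman kept 3 over libraries and 0 over group means, and a minimum of 5 CPM kept 1 over group means. Counts of all genes called that moved by over 1.5 times follow, after the count as reported (a KO with no partner named is against WT). With DESeq2 without a prior these went from 5 to 30 (Cux2 KO E19 females), 21 to 93 (Cux2 KO E19 males), 0 to 3242 (Cux1 KO P4 males), 0 to 179 (Cux2 KO P4 females), 0 to 362 (Cux2 KO P4 males), 589 to 3370 (Cux2 KO against Cux1 KO P4 males), 8 to 13 (WT sexes E19), 0 to 238 (WT sexes P4), 5 to 75 (WT sexes P7), 480 to 1187 (WT P7 against P4), 18 to 70 (Cux2 KO E19 both sexes), 11 to 104 (Cux2 KO P4 both sexes) and 0 to 284 (Cux2 KO by sex P4). With DESeq2 with a prior these went from 5 to 22 (Cux2 KO E19 females), 21 to 66 (Cux2 KO E19 males), 0 to 2273 (Cux1 KO P4 males), 0 to 42 (Cux2 KO P4 females), 0 to 75 (Cux2 KO P4 males), 589 to 2617 (Cux2 KO against Cux1 KO P4 males), 0 to 85 (WT sexes P4) and 5 to 12 (WT sexes P7). With edgeR without the filter these went from 5 to 46 (Cux2 KO E19 females), 21 to 63 (Cux2 KO E19 males), 589 to 0 (Cux2 KO against Cux1 KO P4 males), 0 to 5 (WT sexes P4) and 18 to 55 (Cux2 KO E19 both sexes). With one fit per stage these went from 5 to 8 (Cux2 KO E19 females), 0 to 2597 (Cux1 KO P4 males), 0 to 1 (Cux2 KO P4 females), 0 to 4 (Cux2 KO P4 males), 589 to 2021 (Cux2 KO against Cux1 KO P4 males), 0 to 7 (WT sexes P4), 18 to 53 (Cux2 KO E19 both sexes) and 11 to 6 (Cux2 KO P4 both sexes). With the replicate block these went from 21 to 10 (Cux2 KO E19 males), 589 to 0 (Cux2 KO against Cux1 KO P4 males), 5 to 0 (WT sexes P7), 480 to 147 (WT P7 against P4) and 11 to 2 (Cux2 KO P4 both sexes). With females, and likewise with males, alone these went from 480 to 0 (WT P7 against P4). Over the fits without a library they ran from 3 to 14 (Cux2 KO E19 females), 9 to 19 (Cux2 KO E19 males), 0 to 639 (Cux1 KO P4 males), 0 to 1 (Cux2 KO P4 males), 0 to 3351 (Cux2 KO against Cux1 KO P4 males), 0 to 3 (WT sexes P7), 239 to 519 (WT P7 against P4), 13 to 59 (Cux2 KO E19 both sexes), 4 to 7 (Cux2 KO P4 both sexes) and 0 to 4 (Cux2 KO by sex P4). The replicate block, whose numbers share no known source, changed no call of a member in these comparisons.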
